A study of Homo sapiens with 24 samples.

Results

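The integrated stress response and the serine synthesis pathway that it controls were followed through 32 genes in HK-2 cells, an immortalised human line from the proximal tubule of the kidney. The 32 genes were chosen by name: the listed symbols were looked up by Ensembl ID in the table of 65180 gene IDs, and all 32 had a row. They comprise kinases and phosphatase subunits that set the phosphorylation of the translation factor eIF2, the transcription factors that follow, the enzymes of serine synthesis, of the one-carbon cycle and of other amino acids, and effectors of the stress response. RNA was sequenced from 24 libraries of 6 groups, all from 1 cell line. The groups were normoxic cells with solvent (n = 5), normoxic cells with BAY 60-2770 (n = 3), hypoxic cells with solvent (n = 3), hypoxic cells with BAY 60-2770 (n = 3), normoxic cells with TGF-β1 and solvent (n = 5), and, also in normoxia, both TGF-β1 and BAY 60-2770 (n = 5). All groups were deprived of serum overnight and then incubated for 24 h. Hypoxia was 0.3% oxygen, and TGF-β1, a cytokine that drives fibrosis, was given at 2 ng/mL. BAY 60-2770, called BAY below, is an activator of soluble guanylate cyclase, through which nitric oxide signals by way of cyclic GMP. Its labelled dose is 1 mM, which is far above the doses usual for this class and may be a misprint of the unit, so all BAY effects belong to an uncertain dose.

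In the integrated stress response, kinases that sense amino acid shortage, haem shortage, misfolded protein or double-stranded RNA phosphorylate eIF2. Bulk translation then falls, while the mRNA of ATF4 is translated more. ATF4 is therefore controlled to a large part at translation, and its mRNA level does not measure its protein. ATF4 pairs with C/EBP proteins on composite elements and raises genes for amino acid synthesis, amino acid uptake and tRNA charging, together with its own feedback regulators. PHGDH, PSAT1 and PSPH make serine from a glycolytic intermediate. The SHMT and MTHFD enzymes pass the carbon of serine into the folate cycle, which feeds nucleotide synthesis.

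The composite element for C/EBP and ATF proteins was searched as TGATGNAAN on both strands in the 250 bases before the start of each gene, in RefSeq promoters of GRCh38.p14. A promoter was listed for 25 of the 32 genes. Of these 25, 7 held a match (28%), against 3.14% of the 34796 promoters in the table and 3.87% of the 27305 genes with a promoter. A match is a string of letters and not a shown binding site, and the list of genes was drawn up around targets of ATF4. The matches of these 7 genes are shown, and the other genes searched held none. The 9 letters of the element are in capitals, with up to 15 bases on each side, 5′ to 3′ on the strand of the gene.
ASNS (chr7:97872453-97872491, minus strand, 68 to 60 bases before the start): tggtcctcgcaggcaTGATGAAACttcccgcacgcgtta
CEBPG (chr19:33374056-33374094, plus strand, 42 to 34 bases before the start): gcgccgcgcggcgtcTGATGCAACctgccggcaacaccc
JDP2 (chr14:75427991-75428021, plus strand, 16 to 8 bases before the start): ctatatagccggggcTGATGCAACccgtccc
PPP1R15B (chr1:204412021-204412059, minus strand, 227 to 219 bases before the start): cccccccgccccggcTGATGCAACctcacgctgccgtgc
BCAT1 (chr12:24949126-24949164, minus strand, 48 to 40 bases before the start): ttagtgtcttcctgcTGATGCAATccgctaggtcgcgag
MTHFD1L (chr6:150866342-150866380, plus strand, 129 to 121 or 90 to 82 bases before 2 listed starts): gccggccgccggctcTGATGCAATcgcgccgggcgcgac
CHAC1 (chr15:40953246-40953284, plus strand, element on the opposite strand, 210 to 202 bases before the start): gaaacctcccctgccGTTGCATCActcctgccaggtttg
The ASNS sequence is the element long known from the amino acid response of that gene. CEBPG, JDP2 and PPP1R15B hold the same 9 letters as each other, and CHAC1 holds them on the opposite strand. BCAT1 and MTHFD1L also share their 9 letters. In hypoxia all 7 genes fell, to log2 fold changes from -2.45 for CHAC1 to -0.18 for PPP1R15B. The PPP1R15B call was lost in some of the fits given below. Falls were common there, with 17 of the 32 genes and 31.6% of all genes tested called lower. With BAY in normoxia all 7 values lay below 0, those of CEBPG and PPP1R15B not called. In that comparison 20 of the 32 genes and 23.3% of all genes were called lower, and 5 of the 32 values lay above 0. A link between the matches and these directions was not tested. With TGF-β1 the 7 did not share a direction: the values of BCAT1 and MTHFD1L were 0.48 and 0.49, while that of ASNS was -0.59.

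Libraries held 78862372 to 105571090 counts. The label of proximal tubule was borne out for part of its markers only: 8 of 15 lay at 1 CPM (count per 1e6 counts, scaled by TMM) or more over all libraries. Among them were PAX8 and GGT1, but also VIM, KRT8 and KRT18, and CUBN only just, with a mean of 1.00 CPM. The transporter SLC22A6 was listed at 0, and LRP2 and HNF4A stood near 0. Defining markers of endothelium (PECAM1, CDH5) and podocytes (NPHS1, WT1) were at or near 0. Of 6 immune markers PTPRC, CD3E and LYZ were at or near 0, while CD74 and CD68 had means of 159 and 132 CPM. The marker sums moved with the groups. The 15 proximal tubule markers summed to 1639 to 1928 CPM in normoxic controls and 3009 to 3638 CPM with TGF-β1. The most abundant of them were VIM, KRT8, PAX8 and KRT18, with means of 1177, 631, 313 and 295 CPM over all libraries. VIM alone ran from 318 to 2213 CPM, so this sum does not measure the transporters of the proximal tubule. The 6 fibroblast markers, of which COL1A1 and LUM were the most abundant and PDGFRA and COL3A1 near 0, summed to 107 to 132 CPM in normoxic controls, 292 to 304 CPM with TGF-β1, and 124 to 130 CPM in hypoxia against 224 to 242 CPM in hypoxia with BAY. The immune markers went from 363 to 389 CPM in normoxic controls to 246 to 256 CPM with BAY and 223 to 255 CPM with TGF-β1, and 7 distal nephron markers, mainly SCNN1A, from 36.2 to 38.5 CPM to 8.08 to 10.4 CPM with TGF-β1. The 4 podocyte markers summed to 67.9 to 89.0 CPM in normoxic controls, 449 to 482 CPM in hypoxia and 1223 to 1350 CPM in hypoxia with BAY, nearly all of it SYNPO. Their part in the results was not tested. In the 3 groups of 5, libraries fell into 2 subsets that the labels do not explain. Subset 1 held replicates 1, 2 and 5 of the normoxic solvent controls and replicates 1 and 2 of both TGF-β1 groups, and subset 2 held the other 8 libraries. The controls thus held 3 libraries of subset 1 and 2 of subset 2, and each TGF-β1 group held 2 and 3. TGF-β1 and controls were therefore not balanced for the subsets, and a value over all libraries can lie outside both values within subsets. Over 10000 genes, the deviations of libraries from their group means correlated at 0.285 to 0.806 within a subset and at -0.807 to -0.218 between subsets. Of the 32 genes, 12 were higher in subset 1 than in subset 2 without overlap in all 3 groups, against 17% of the 21639 genes tested, and 0 were higher in subset 2 in this way, against 8.27%. The 12 were ATF4, DDIT3, PPP1R15A, PPP1R15B, TRIB3, CEBPB, CHAC1, EIF2AK1, ALDH18A1, MTHFD2, PSAT1 and SHMT2. The subsets were drawn on all genes, so this is a description. Values within each subset, chosen after the data were seen, are given beside the results whose call they change. The groups of 3 could not be placed in a subset.

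Each gene was tested with edgeR's quasi-likelihood test and called at an adjusted p (Benjamini-Hochberg over all genes of the fit) below 0.05. Only genes called in this way are said to rise or fall. All fold changes are on the log2 scale, and each has an approximate standard error (SE). The labels name the replicates biological with no word on what set them apart, so a p-value here measures spread among these 24 libraries alone, which may be technical. Since these are bulk libraries, fewer cells of a type and less RNA per cell cannot be told apart.

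Hypoxia moved the 32 genes in both directions. DDIT4, an inhibitor of the growth kinase complex mTORC1, rose by 3.17 on the log2 scale, and CEBPB, TRIB3 and DDIT3 rose too, while CHAC1, ASNS, BCAT1 and all 3 serine synthesis genes fell. Of the 32, 11 rose, 17 fell and 4 were not called. Among all 21316 genes tested 60.8% were called, 29.2% higher and 31.6% lower, so a call in hypoxia was common. The median log2 fold change of the 32 was -0.21, against -0.02 over all genes. The 4 genes not called were EIF2AK4, SHMT1, SHMT2 and CBS, at -0.23 to 0.06.

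BAY in normoxia lowered most of them. BCAT1, VLDLR, ASNS and MTHFD1L fell the most, and DDIT4 and CTH, an enzyme that makes cysteine, rose. Of the 32, 4 rose, 20 fell and 8 were not called, where 43.9% of all genes were called, 20.6% higher and 23.3% lower. The median log2 fold change was -0.33, against 0.00 over all genes, and 27 of the 32 values lay below 0. The 8 not called were ATF4, DDIT3, TRIB3, CEBPG, NUPR1, PPP1R15B, PHGDH and SHMT1.

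BAY in hypoxia gave 4 genes that rose, 17 that fell and 11 that were not called, where 37.9% of all genes were called, 16.5% higher and 21.4% lower. CTH rose by 1.56 on the log2 scale, and DDIT4, TRIB3 and KLHL24 were the other genes that rose. BCAT1, ASNS and MTHFD1L fell the most. The median was -0.16, against -0.02 over all genes. The 11 not called were ATF4, DDIT3, CEBPB, NUPR1, PPP1R15A, PPP1R15B, PHGDH, SHMT1, MTHFD2, ALDH18A1 and CHAC1, of which CHAC1 had the lowest value, -0.61 (SE 0.237, adjusted p = 0.0546). With the replicate block, which ties libraries of the same number across all groups of the experiment, normoxic ones included, CHAC1 fell by 0.60 (adjusted p = 0.0155). In a fit of the hypoxic solvent and hypoxic BAY groups alone with the block it was not called (-0.57, adjusted p = 0.0851).

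TGF-β1 divided the serine pathway. The 3 genes of serine synthesis fell, while SHMT2, MTHFD1L and MTHFD2, which use serine carbon, rose, as did EIF4EBP1, BCAT1, PYCR1 and XPOT. Of the 32, 12 rose, 10 fell and 10 were not called, where 62% of all 21639 genes tested were called, 29.5% higher and 32.5% lower. The median was -0.04, the same as over all genes. The 10 not called were ATF4, CEBPG, JDP2, TRIB3, PPP1R15A, PPP1R15B, EIF2AK1, ALDH18A1, CHAC1 and SHMT1. These groups were not balanced for the subsets. With the subset as a term ALDH18A1 rose (0.08, adjusted p = 0.00114), and none of the others was called.

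BAY added to TGF-β1 gave 4 genes that rose, 14 that fell and 14 that were not called, where 29.5% of all genes were called, 13.9% higher and 15.6% lower. ASNS, PSAT1, TRIB3 and VLDLR fell, and DDIT4 and CTH rose, as did EIF2AK1 and PPP1R15B by at most 0.15 on the log2 scale. The median was -0.17, against 0.01 over all genes. With the replicate block, which ties libraries of the same number across all groups of the experiment, normoxic ones included, 20 genes were called in place of 18. DDIT3 (-0.27, adjusted p = 0.027) and CHAC1 (-0.37, adjusted p = 0.0439) were added to those that fell. With the subset as a term in place of the block, PPP1R15A (-0.21, adjusted p = 0.000152) and DDIT3 (-0.26, adjusted p = 0.000761) fell. CHAC1 (-0.38, adjusted p = 0.0049) and CBS (-0.06, adjusted p = 0.0277) fell there too, and ALDH18A1 rose (0.11, adjusted p = 6.29e-05). Hypoxia, BAY in normoxia and TGF-β1 were each compared with the same 5 normoxic solvent libraries, so their values stand side by side below and are not independent of each other.

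**Figure D1:**
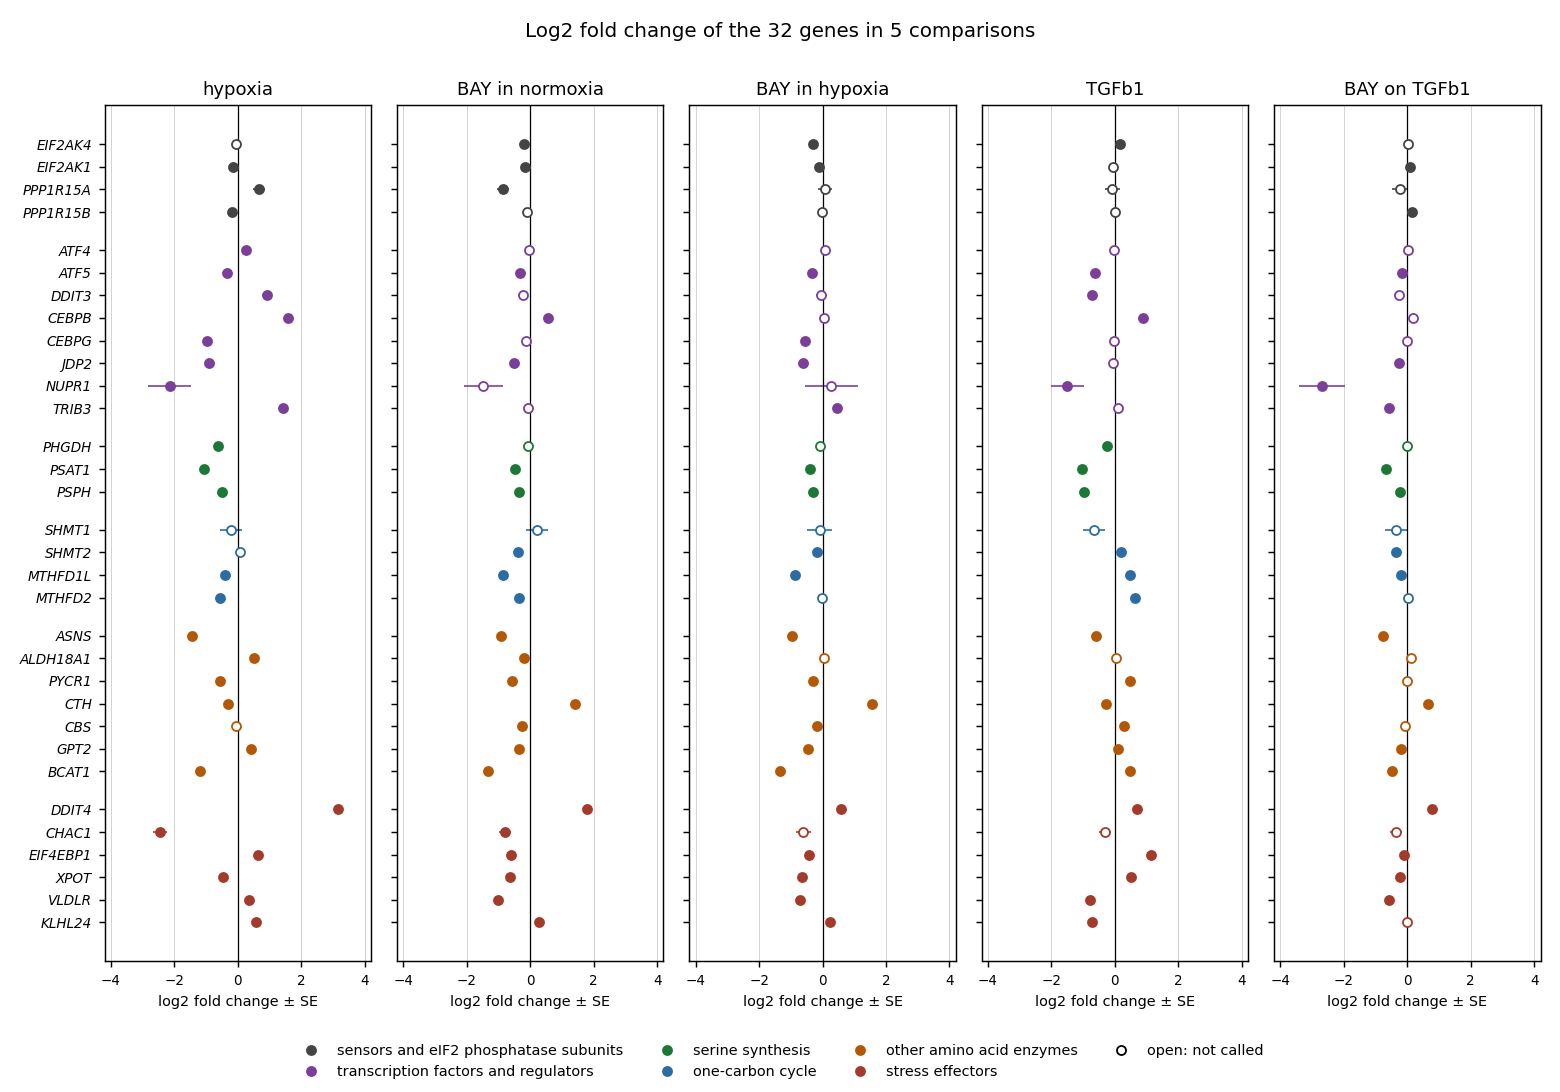
Log2 fold change of each of the 32 genes (points, with SE as bars) in 5 comparisons, grouped and coloured by role, with open points for genes not called at an adjusted p below 0.05. DDIT4 lies at 3.17 in hypoxia, and most points lie left of 0 with BAY in normoxia, where 20 genes fell and 4 rose.

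Among the eIF2 kinases and phosphatase subunits, PPP1R15A had the widest range. PPP1R15A, also called GADD34, brings the phosphatase to eIF2 and ends the stress response. It stood at 56.4, 54.8, 31.5, 32.0 and 55.1 CPM in replicates 1 to 5 of the normoxic solvent controls and at 26.7, 23.9 and 24.8 CPM with BAY in normoxia. The controls split by subset, with replicates 3 and 4 of subset 2 far below the other 3, and every BAY library lay below every control. Hypoxic solvent libraries held 67.1, 73.2 and 80.6 CPM and hypoxic BAY libraries 76.9, 74.0 and 84.3 CPM. Both hypoxic groups lay above all normoxic libraries and overlapped each other. PPP1R15A rose in hypoxia by 0.67 (SE 0.189, adjusted p = 0.00951) and fell with BAY in normoxia to a log2 fold change of -0.86 (SE 0.20, adjusted p = 0.00487). The size depended on the controls: against subset 1 alone the values were 0.41 and -1.14, and against subset 2 alone 1.21 and -0.34, all still called. With TGF-β1 it stood at 62.3, 63.4, 33.2, 34.0 and 33.2 CPM, and at 49.3, 49.2, 29.0, 30.0 and 32.4 CPM with TGF-β1 and BAY. These groups overlapped each other and the controls, and the subsets stood apart in both. TGF-β1 gave -0.08 (SE 0.245, adjusted p = 0.807) over all libraries, 0.16 (adjusted p = 0.00268) within subset 1 and 0.04 (adjusted p = 0.47) within subset 2. BAY on TGF-β1 gave -0.24 (SE 0.246, adjusted p = 0.537) over all, -0.35 (adjusted p = 2.19e-05) within subset 1 and -0.12 (adjusted p = 0.0598) within subset 2. In a fit of these 2 groups alone with the replicate block it was -0.22 (adjusted p = 0.00505).

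The other 3 genes of this role moved little. PPP1R15B, the constitutive subunit of the same phosphatase, had group means from 102 to 133 CPM. It fell in hypoxia (-0.18, SE 0.0694, adjusted p = 0.0359), a call that was lost against subset 2 alone (-0.02, adjusted p = 0.814) and without hypoxic solvent replicate 3 (-0.11, adjusted p = 0.219), the lowest of its group, and without normoxic solvent replicates 1, 2 or 5 or hypoxic solvent replicate 2 (adjusted p from 0.0579 to 0.0883). It rose with BAY on TGF-β1 (0.15, SE 0.0452, adjusted p = 0.0166). Against subset 1 it also fell with BAY in normoxia (-0.19, adjusted p = 0.0287), and within subset 2 it rose with TGF-β1 (0.15, adjusted p = 0.000362). EIF2AK4, the GCN2 kinase that senses uncharged tRNA, had means from 34.4 to 50.3 CPM. It fell with BAY in normoxia (-0.21, SE 0.0443, adjusted p = 0.00115) and in hypoxia (-0.29, SE 0.0496, adjusted p = 0.000254) and rose with TGF-β1 (0.17, SE 0.0394, adjusted p = 0.00103). EIF2AK1, the haem-regulated kinase, had means from 122 to 151 CPM. Its changes were small in every comparison: it fell in hypoxia (-0.14), with BAY in normoxia (-0.17) and with BAY in hypoxia (-0.11), and rose with BAY on TGF-β1 (0.10). The fall in hypoxia was lost against subset 2 (-0.08, adjusted p = 0.087), the fall with BAY in hypoxia in a fit of the 2 groups with the replicate block (-0.08, adjusted p = 0.137), and the rise with BAY on TGF-β1 without replicate 1 or replicate 2 of the TGF-β1 and BAY group (0.09, adjusted p = 0.0575, and 0.09, adjusted p = 0.0598). The EIF2AK1 gene overlaps AIMP2 on the opposite strand, and whether the counting used strand is not given in the sources used here.

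ATF4 mRNA was among the steadiest of the 32, its 6 group means spanning 1.32-fold. The gene (ENSG00000128272) lies at chr22:39519695-39522685 of GRCh38 on the plus strand. It stood at 297, 288, 222, 216 and 302 CPM in replicates 1 to 5 of the normoxic solvent controls, at 265, 252 and 249.7 CPM with BAY in normoxia, at 309.6, 314 and 333 CPM in hypoxia and at 349, 338 and 323 CPM in hypoxia with BAY. Controls of subset 2 (replicates 3 and 4) were the lowest of all these libraries, those of subset 1 lay just below hypoxia, and the normoxic BAY libraries lay between the subsets. ATF4 rose in hypoxia by 0.25 (SE 0.0931, adjusted p = 0.0306). That call was lost without hypoxic solvent replicate 3 (0.22, adjusted p = 0.117) and without normoxic solvent replicate 3 (0.20, adjusted p = 0.0541), reached an adjusted p of 0.05 without hypoxic solvent replicate 2, and was lost in 1 fit of all 24 libraries (0.25, adjusted p = 0.127). Against subset 1 the rise was 0.11 (adjusted p = 0.0316) and against subset 2 0.54 (adjusted p = 4.46e-07). BAY in normoxia gave -0.04 (SE 0.0939, adjusted p = 0.762), and this turned with the controls: -0.21 (adjusted p = 0.000687) against subset 1 and 0.22 (adjusted p = 0.00317) against subset 2. With TGF-β1 ATF4 stood at 323, 319.9, 231, 231 and 237 CPM and with TGF-β1 and BAY at 321, 322, 227, 232 and 249 CPM. In both groups replicates 1 and 2 were far above the other 3, and the groups overlapped. TGF-β1 gave -0.03 (adjusted p = 0.84) over all libraries and 0.10 (adjusted p = 0.00972) and 0.06 (adjusted p = 0.221) within subsets 1 and 2. The value over all libraries lay below both, and these groups hold the subsets in unequal numbers. BAY on TGF-β1 gave 0.03 (SE 0.131, adjusted p = 0.916).

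DDIT3, also called CHOP, is a transcription factor of prolonged stress. It stood at 32.5, 32.2, 22.1, 21.2 and 34.4 CPM in normoxic solvent controls and at 25.8, 23.9 and 23.3 CPM with BAY. These groups overlapped, and controls of subset 2 were the lowest. Hypoxic libraries held 49.4, 49.7 and 62.5 CPM with solvent and 54.5, 50.3 and 53.5 CPM with BAY, all above every normoxic library. BAY in normoxia was not called over all libraries, and against subset 1 DDIT3 fell (-0.45, adjusted p = 0.000554). DDIT3 rose in hypoxia by 0.91 (SE 0.149, adjusted p = 0.000198). TGF-β1 libraries held 20.3, 21.5, 15.6, 15.9 and 16.9 CPM, and those with BAY 17.0, 16.5, 13.1, 13.1 and 14.3 CPM. TGF-β1 replicate 2 lay just above the lowest control, and all other libraries with TGF-β1 lay below the controls. DDIT3 fell with TGF-β1 to a log2 fold change of -0.71 (SE 0.134, adjusted p = 0.000172), and within subsets 1 and 2 to -0.69 and -0.45. BAY on TGF-β1 was not called over all libraries (-0.27, SE 0.135, adjusted p = 0.155), while within subset 1 (-0.32, adjusted p = 0.000489) and within subset 2 (-0.23, adjusted p = 0.0021) DDIT3 fell. The DDIT3 gene overlaps MARS1 and MBD6 on the opposite strand, and MARS1 itself fell in hypoxia to a log2 fold change of -1.77. Reads of these genes may not be fully separated.

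TRIB3, a pseudokinase raised by ATF4 and DDIT3 that feeds back on both, separated hypoxia from normoxia. It did not separate BAY alone or TGF-β1 alone from the normoxic controls. It stood at 102, 99.3, 93.8, 95.8 and 101 CPM in normoxic solvent controls and at 96.4, 93.5 and 91.7 CPM with BAY, which overlapped. In hypoxia it stood at 258, 256 and 280.5 CPM with solvent and 358, 354 and 384 CPM with BAY. All hypoxic solvent libraries lay above normoxia, and all hypoxic BAY libraries above those. TRIB3 rose in hypoxia by 1.41 (SE 0.0397, adjusted p = 2.33e-13) and again with BAY in hypoxia by 0.45 (SE 0.0452, adjusted p = 1.22e-06). TGF-β1 libraries held 129, 129, 95.6, 94.8 and 94.1 CPM, and those with BAY as well 84.9, 84.8, 60.5, 59.3 and 66.8 CPM. BAY lowered it below every TGF-β1 library, and the subsets stood apart in both groups. TRIB3 fell with BAY on TGF-β1 to a log2 fold change of -0.59 (SE 0.107, adjusted p = 0.0004). TGF-β1 alone gave 0.09 (SE 0.106, adjusted p = 0.483) over all libraries, 0.33 (adjusted p = 7.88e-08) in subset 1 and -0.03 (adjusted p = 0.571) in subset 2.

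CEBPB, a C/EBP factor of stress and injury, stood at 52.8, 46.0, 37.0, 38.0 and 46.0 CPM in normoxic solvent controls and at 70.6, 60.2 and 63.1 CPM with BAY. All BAY libraries were above all controls, and CEBPB rose by 0.57 (SE 0.102, adjusted p = 0.000613). It stood at 129.7, 144 and 122 CPM in hypoxia and at 131, 131 and 153 CPM in hypoxia with BAY, which overlapped, and rose in hypoxia by 1.57 (SE 0.101, adjusted p = 1.59e-08). TGF-β1 libraries held 98.9, 86.5, 84.9, 75.3 and 71.0 CPM and TGF-β1 with BAY 100.4, 96.2, 81.0, 93.5 and 92.0 CPM. These groups overlapped each other but not the controls, and CEBPB rose with TGF-β1 by 0.87 (SE 0.0978, adjusted p = 4.75e-07).

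CEBPG, which pairs with ATF4 on composite elements and holds a match in its promoter, was lowest in hypoxia. It stood at 30.8, 32.4, 30.2, 29.6 and 31.8 CPM in normoxic solvent controls and 29.1, 27.5 and 28.7 CPM with BAY. Hypoxia brought it to 16.0, 16.4 and 15.5 CPM, and hypoxia with BAY to 11.9, 11.6 and 9.31 CPM. These levels fell in 2 steps without overlap, to a log2 fold change of -0.97 (SE 0.0637, adjusted p = 2.29e-09) for hypoxia and -0.55 (SE 0.071, adjusted p = 1.61e-05) for BAY in hypoxia. With TGF-β1 it stood at 31.2, 32.1, 30.4, 31.1 and 31.4 CPM and with BAY added at 32.5, 30.0, 30.6, 29.6 and 29.5 CPM, which overlapped each other and the controls.

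ATF5, a relative of ATF4 that is also controlled at translation, had its highest mean in normoxic solvent controls, 27.6 ± 0.885 CPM (SD, n = 5), and its lowest with TGF-β1 and BAY, 16.4 ± 0.693 CPM (SD, n = 5). It fell in all 5 comparisons, the most with TGF-β1 (-0.63, SE 0.0379, adjusted p = 5.52e-11) and the least with BAY on TGF-β1 (-0.15, SE 0.0381, adjusted p = 0.0045). The gene overlaps NUP62 and IL4I1 on the opposite strand. JDP2, a partner of DDIT3 and JUN proteins, fell from 7.1 ± 0.354 CPM (SD, n = 5) to 3.81 ± 0.281 CPM (SD, n = 3) in hypoxia (-0.91, SE 0.0888, adjusted p = 2.22e-07), and fell with BAY in each setting, to a log2 fold change of -0.50 in normoxia, -0.61 in hypoxia and -0.25 on TGF-β1. The last was lost within subset 2 (-0.16, adjusted p = 0.0773) and held within subset 1 (-0.41, adjusted p = 0.00123). NUPR1, a small chromatin protein of stress, was barely present. It stood at 0.249, 0.301, 0.0884, 0.103 and 0.151 CPM in normoxic solvent controls, 0.0765, 0.0503 and 0.0603 CPM with BAY, 0, 0.085 and 0.0348 CPM in hypoxia and 0.0218, 0.0525 and 0.0744 CPM in hypoxia with BAY. TGF-β1 libraries held 0.122, 0.0644, 0.0694, 0.0468 and 0.0215 CPM and those with BAY 0.0323, 0, 0.0112, 0 and 0 CPM. No library reached 1 CPM, and 1 hypoxic solvent library and 3 libraries with TGF-β1 and BAY were at 0. NUPR1 was called lower in hypoxia, with TGF-β1 and with BAY on TGF-β1, but its fitted folds rest on few reads: the value in hypoxia was -2.15, and -3.33 without hypoxic solvent replicate 2. The TGF-β1 call was lost without normoxic solvent replicate 2 (-1.23, adjusted p = 0.0552), its highest library. Within subset 1 neither TGF-β1 (-1.35, adjusted p = 0.0677) nor BAY on TGF-β1 (-2.45, adjusted p = 0.0508) was called, while BAY in normoxia was (-1.89, adjusted p = 0.0182).

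**Figure D2:**
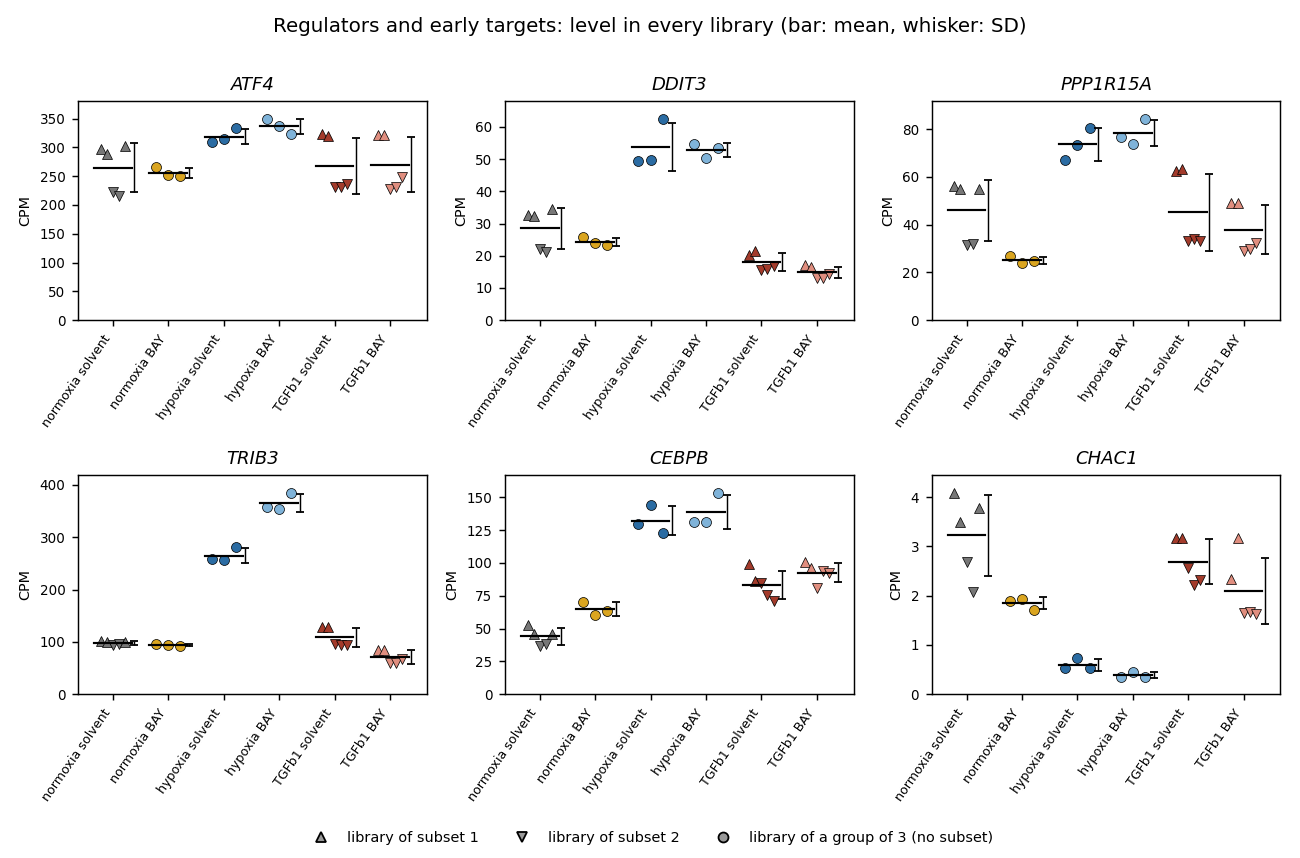
CPM of 6 regulators and targets in every library, by group, with the group mean as a bar and the SD as a whisker, and with triangles for the subsets of the groups of 5. ATF4 and PPP1R15A split by subset in all 3 groups of 5, and TRIB3 rises from at most 102 CPM in normoxic controls to at least 354 CPM in hypoxia with BAY.

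The 3 genes of serine synthesis fell together with hypoxia and with TGF-β1. PSAT1 (ENSG00000135069, chr9:78297143-78330093, plus strand), an aminotransferase, stood at 51.3, 49.5, 45.0, 43.2 and 53.2 CPM in normoxic solvent controls and 35.1, 33.7 and 35.4 CPM with BAY. Hypoxic libraries held 24.6, 25.9 and 19.9 CPM with solvent and 19.5, 19.3 and 14.6 CPM with BAY. The levels were 24.6, 25.2, 24.5, 23.1 and 24.6 CPM with TGF-β1 and 16.7, 16.2, 14.2, 13.4 and 14.6 CPM with TGF-β1 and BAY. Every treated group lay below the controls, and in each pair every BAY library lay below every solvent library. PSAT1 fell to a log2 fold change of -1.06 (SE 0.101, adjusted p = 4.91e-07) in hypoxia and to -1.04 (SE 0.057, adjusted p = 1.33e-11) with TGF-β1. It fell with BAY to a log2 fold change of -0.47 in normoxia, -0.41 in hypoxia and -0.68 (SE 0.0578, adjusted p = 5.61e-08) on TGF-β1. Against subset 2 alone the fall with BAY in normoxia was -0.35 (adjusted p = 0.057).

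PSPH, the phosphatase of the last step, stood at 39.9, 39.8, 34.1, 35.9 and 41.5 CPM in normoxic solvent controls and 32.1, 29.1 and 28.6 CPM with BAY. In hypoxia the values were 27.4, 28.1 and 25.8 CPM, and with BAY 22.8, 23.1 and 20.6 CPM. Under TGF-β1 the libraries read 21.8, 21.6, 19.5, 18.3 and 20.2 CPM with solvent and 17.4, 17.9, 16.3, 16.3 and 17.5 CPM with BAY. As for PSAT1, all treated groups lay below the controls, and no pair overlapped. PSPH fell to a log2 fold change of -0.97 (SE 0.0559, adjusted p = 2.79e-11) with TGF-β1, to -0.51 (SE 0.0606, adjusted p = 2.08e-06) in hypoxia, and with BAY to -0.34 in normoxia, -0.30 in hypoxia and -0.23 on TGF-β1. PHGDH, the first enzyme of the pathway, had means of 137 ± 2.38 CPM in normoxic controls (SD, n = 5), 90.2 ± 3.38 CPM in hypoxia (SD, n = 3) and 119 ± 0.615 CPM with TGF-β1 (SD, n = 5). It fell in hypoxia (-0.62, SE 0.0335, adjusted p = 2.66e-10) and with TGF-β1 (-0.26, SE 0.0268, adjusted p = 1.23e-07). BAY gave no call for PHGDH, with -0.07 in normoxia, -0.08 in hypoxia and -0.02 on TGF-β1, although within subset 1 the last was -0.08 (adjusted p = 0.0481). The BAY effects on PHGDH and on the other 2 genes were not tested against each other.

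In the one-carbon cycle, MTHFD1L and MTHFD2, mitochondrial enzymes that turn serine carbon into formate, were lowered by hypoxia and raised by TGF-β1. MTHFD1L stood at 42.7, 40.6, 45.1, 43.7 and 44.6 CPM in normoxic solvent controls and 23.6, 23.5 and 23.8 CPM with BAY. Hypoxia gave 34.4, 33.9 and 31.4 CPM, and hypoxia with BAY 17.7, 18.3 and 19.4 CPM. With TGF-β1 it stood at 66.5, 66.2, 60.9, 60.8 and 61.3 CPM and with TGF-β1 and BAY at 54.1, 54.4, 54.6, 54.0 and 55.9 CPM. No 2 of these 6 ranges overlapped. MTHFD1L fell with BAY to a log2 fold change of -0.87 (SE 0.0475, adjusted p = 1.22e-09) in normoxia and -0.86 (SE 0.0527, adjusted p = 6.45e-09) in hypoxia, and to -0.19 (SE 0.031, adjusted p = 0.000113) on TGF-β1, where the value was -0.29 within subset 1 and -0.13 within subset 2. It fell to a log2 fold change of -0.40 in hypoxia and rose by 0.49 with TGF-β1.

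MTHFD2 stood at 64.5, 63.4, 63.2, 62.1 and 66.5 CPM in normoxic solvent controls and 50.5, 49.1 and 50.3 CPM with BAY. It stood at 43.1, 42.5 and 44.8 CPM in hypoxia and 44.6, 43.8 and 41.6 CPM in hypoxia with BAY. TGF-β1 libraries held 105, 106, 99.8, 98.0 and 103 CPM, and those with BAY as well 106, 103, 101, 99.8 and 102 CPM. BAY and solvent stood apart in normoxia, while the hypoxic pair and the TGF-β1 pair overlapped. MTHFD2 rose with TGF-β1 by 0.63 (SE 0.0241, adjusted p = 7.63e-14) and fell in hypoxia to a log2 fold change of -0.57 (SE 0.0334, adjusted p = 6.27e-10) and with BAY in normoxia to -0.35 (SE 0.033, adjusted p = 5.17e-07). SHMT2, the mitochondrial enzyme that takes the first carbon from serine, had means of 151 ± 4.8 CPM in controls (SD, n = 5) and 179 ± 3.34 CPM with TGF-β1 (SD, n = 5), where it rose (0.20, SE 0.0302, adjusted p = 1.26e-05). It fell with BAY in all 3 settings, to a log2 fold change of -0.37 in normoxia, -0.17 in hypoxia and -0.34 on TGF-β1, and was not called in hypoxia (0.06), where it rose against subset 2 (0.12, adjusted p = 0.0153). SHMT1, its cytosolic counterpart, was called in no comparison over all libraries. With TGF-β1 its value was -0.66 (adjusted p = 0.119), and within subset 1 it fell (-0.73, adjusted p = 0.00455). It varied widely between replicates: controls ran from 23.5 to 91.6 CPM and TGF-β1 with BAY from 10.6 to 46.1 CPM, with 1 low library in each. SHMT1 overlaps SMCR8 on the opposite strand.

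**Figure D3:**
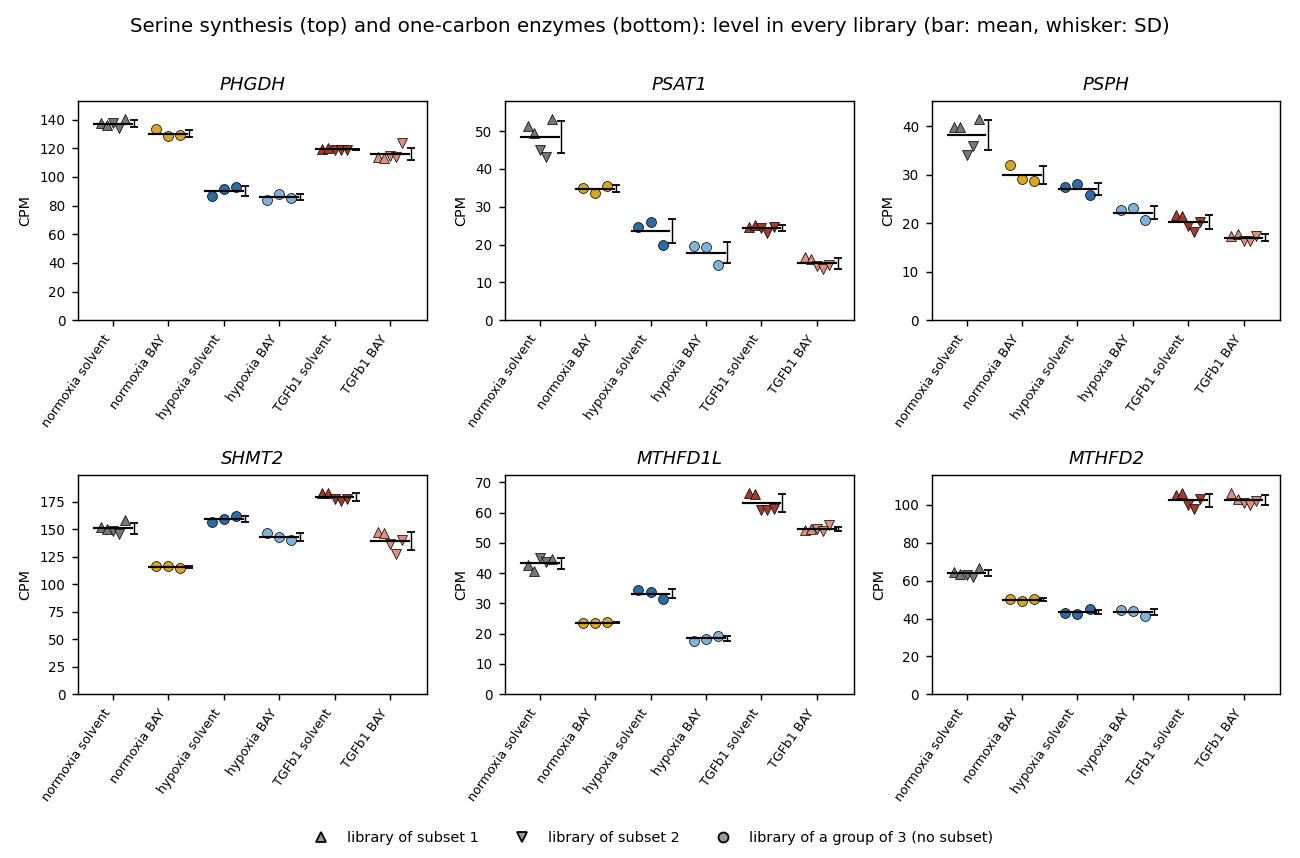
CPM of 3 serine synthesis genes (top) and 3 mitochondrial one-carbon genes (bottom) in every library, by group, with the mean as a bar and the SD as a whisker. The TGF-β1 groups lie below the controls for PSAT1 and PSPH and above them for MTHFD1L and MTHFD2.

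Among the other amino acid enzymes, ASNS, which makes asparagine, fell in all 5 comparisons. It stood at 17.9, 18.0, 21.3, 22.4 and 18.8 CPM in normoxic solvent controls and 10.2, 10.2 and 10.5 CPM with BAY. Hypoxic libraries held 7.89, 7.12 and 7.07 CPM with solvent and 3.3, 4.2 and 4.06 CPM with BAY. The levels were 12.8, 12.8, 13.3, 15.2 and 13.5 CPM with TGF-β1 and 8.13, 8.02, 7.62, 7.04 and 8.73 CPM with TGF-β1 and BAY. In each pair BAY and solvent stood apart. Controls of subset 2 were the higher ones here, the opposite of ATF4. ASNS fell to a log2 fold change of -1.44 (SE 0.098, adjusted p = 3.7e-09) in hypoxia and to -0.59 (SE 0.0705, adjusted p = 6.82e-07) with TGF-β1. The falls with BAY were -0.93 (SE 0.0951, adjusted p = 1.19e-06) in normoxia, -0.95 (SE 0.11, adjusted p = 5.75e-06) in hypoxia and -0.76 (SE 0.0716, adjusted p = 2.08e-07) on TGF-β1. ASNS shares its strand with an overlapping transcript, AC079781.5, and reads could be split between them.

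BCAT1 (ENSG00000060982, chr12:24810022-24949459, minus strand), the cytosolic enzyme that starts the breakdown of leucine, isoleucine and valine, had the lowest fold changes with BAY in normoxia and in hypoxia among the called genes. It stood at 118, 118, 123, 125 and 115 CPM in normoxic solvent controls and 44.7, 46.6 and 50.3 CPM with BAY. In hypoxia the values were 52.3, 54.5 and 53.0 CPM, and with BAY 20.0, 22.4 and 20.9 CPM. Under TGF-β1 the libraries read 177, 179, 166, 171 and 173 CPM with solvent and 134, 130.4, 125, 109.9 and 119.8 CPM with BAY. Each BAY group lay wholly below its solvent group, and TGF-β1 lay above the controls. BCAT1 fell with BAY to a log2 fold change of -1.33 (SE 0.0514, adjusted p = 2.74e-11) in normoxia, -1.35 (SE 0.0574, adjusted p = 1.37e-10) in hypoxia and -0.47 (SE 0.0413, adjusted p = 8.95e-08) on TGF-β1. It fell to a log2 fold change of -1.19 (SE 0.0511, adjusted p = 2.15e-11) in hypoxia and rose by 0.48 (SE 0.0413, adjusted p = 7.29e-09) with TGF-β1.

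CTH (ENSG00000116761, chr1:70411218-70439851, plus strand), cystathionine gamma-lyase, rose with BAY in all 3 settings. It stood at 13.8, 12.6, 11.7, 11.4 and 13.4 CPM in normoxic solvent controls and 34.0, 32.0 and 34.5 CPM with BAY. Hypoxia gave 10.4, 10.4 and 10.3 CPM, and hypoxia with BAY 33.8, 35.1 and 23.2 CPM. With TGF-β1 it stood at 11.1, 10.8, 11.0, 10.3 and 11.0 CPM and with TGF-β1 and BAY at 19.3, 18.2, 16.4, 15.0 and 15.1 CPM. All 3 BAY groups lay above their solvent groups, although replicate 3 of hypoxia with BAY was well below the other 2. CTH rose with BAY by 1.42 (SE 0.101, adjusted p = 5.42e-08) in normoxia, 1.56 (SE 0.119, adjusted p = 1.83e-07) in hypoxia and 0.65 (SE 0.0656, adjusted p = 4.99e-07) on TGF-β1. It fell with TGF-β1 (-0.27, SE 0.0656, adjusted p = 0.00158), a call that was lost within subset 2 (-0.13, adjusted p = 0.0543). Its fall in hypoxia (-0.30, SE 0.107, adjusted p = 0.0279) was lost without any 1 of hypoxic solvent replicates 1, 2 and 3 or of normoxic solvent replicates 1 and 5 (adjusted p from 0.0578 to 0.0838), and was -0.15 (adjusted p = 0.406) against subset 2. CBS, which makes the substrate of CTH, fell with BAY in normoxia (-0.26, SE 0.0387, adjusted p = 6.32e-05) and in hypoxia (-0.16, SE 0.0431, adjusted p = 0.00705) and rose with TGF-β1 (0.28, SE 0.0232, adjusted p = 5.84e-09). BAY on TGF-β1 gave CBS -0.06 (adjusted p = 0.0511), and -0.06 (adjusted p = 0.0277) with the subset as a term. CBS has a near-identical copy in the genome, so its values are uncertain.

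PYCR1, the mitochondrial enzyme of the last step of proline synthesis, stood at 55.9, 55.8, 56.5, 55.5 and 59.0 CPM in normoxic solvent controls and 39.0, 37.5 and 36.6 CPM with BAY. It stood at 37.9, 40.0 and 37.8 CPM in hypoxia and 33.2, 30.0 and 31.0 CPM in hypoxia with BAY. TGF-β1 libraries held 90.1, 86.8, 74.9, 76.6 and 79.3 CPM, and those with BAY as well 86.4, 86.8, 75.4, 74.6 and 78.5 CPM. TGF-β1 raised it above every other group, and there the BAY and solvent libraries overlapped. PYCR1 rose with TGF-β1 by 0.48 (SE 0.0459, adjusted p = 3.76e-08) and fell with BAY to a log2 fold change of -0.58 (SE 0.0382, adjusted p = 1.01e-08) in normoxia and -0.31 (SE 0.0426, adjusted p = 3.51e-05) in hypoxia. Hypoxia itself gave -0.57 (SE 0.0383, adjusted p = 3.14e-09). ALDH18A1, which starts proline synthesis from glutamate, rose in hypoxia from 141 ± 11.5 CPM (SD, n = 5) to 202 ± 2.56 CPM (SD, n = 3), by 0.50 (SE 0.045, adjusted p = 8.92e-08). It fell with BAY in normoxia (-0.20, SE 0.0459, adjusted p = 0.00254), which was -0.08 (adjusted p = 0.108) against subset 2. TGF-β1 gave 0.04 (adjusted p = 0.571) over all libraries, and ALDH18A1 rose within subset 1 (0.12, adjusted p = 0.00115) and within subset 2 (0.10, adjusted p = 0.00399). BAY on TGF-β1 gave 0.11 (SE 0.0612, adjusted p = 0.184) over all libraries, 0.10 (adjusted p = 0.0147) and 0.11 (adjusted p = 0.00158) within subsets 1 and 2, and 0.11 (adjusted p = 0.0012) in a fit of the 2 groups with the replicate block. GPT2, a mitochondrial alanine aminotransferase, rose in hypoxia (0.42, SE 0.0382, adjusted p = 1.01e-07) and fell with BAY in normoxia (-0.34), in hypoxia (-0.45) and on TGF-β1 (-0.19). With TGF-β1 it rose by 0.09 (SE 0.0284, adjusted p = 0.0126), which was 0.06 (adjusted p = 0.135) within subset 2.

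DDIT4 (ENSG00000168209, chr10:72273920-72276036, plus strand), also called REDD1, had the widest span of group means, 13.7-fold, with NUPR1 and its libraries at 0 left out. It stood at 125, 121, 138, 135 and 120.3 CPM in normoxic solvent controls and 455, 428 and 425 CPM with BAY. Hypoxic libraries held 1096, 1124 and 1276 CPM with solvent and 1718, 1764 and 1776 CPM with BAY. The levels were 228, 231, 199.7, 202 and 205 CPM with TGF-β1 and 456, 466, 288, 297 and 289 CPM with TGF-β1 and BAY. Every treatment raised it and no pair overlapped. With TGF-β1 and BAY, replicates 1 and 2 of subset 1 were far above the other 3. DDIT4 rose by 3.17 (SE 0.0618, adjusted p = 5.14e-15) in hypoxia, 1.78 (SE 0.0605, adjusted p = 7.44e-12) with BAY in normoxia and 0.58 (SE 0.0688, adjusted p = 7.51e-06) with BAY in hypoxia. It rose by 0.69 (SE 0.118, adjusted p = 7.55e-05) with TGF-β1 and by 0.77 (SE 0.118, adjusted p = 9.32e-05) with BAY on TGF-β1, the last being 1.00 within subset 1 and 0.55 within subset 2. DDIT4 is also a target of the hypoxia inducible factors. All 15 tested genes of a list of such targets, DDIT4 among them, rose in hypoxia, where 29.2% of all genes were called higher. With BAY in normoxia 2 of the 15 rose, DDIT4 itself being 1 of them, and 11 fell. There 20.6% of all genes were called higher and 23.3% lower. What raised DDIT4 was not tested.

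VLDLR, a lipoprotein receptor, rose in hypoxia and fell in the other 4 comparisons. It stood at 112, 109, 107, 109.9 and 107 CPM in normoxic solvent controls and 53.0, 52.1 and 54.0 CPM with BAY. In hypoxia the values were 139, 146 and 140.5 CPM, and with BAY 87.6, 88.6 and 83.9 CPM. Under TGF-β1 the libraries read 78.7, 78.7, 57.4, 56.4 and 57.0 CPM with solvent and 53.5, 52.0, 36.9, 37.6 and 36.5 CPM with BAY. Replicates 1 and 2 of both TGF-β1 groups were above their other 3, and within each pair BAY lay below solvent. VLDLR fell with BAY to a log2 fold change of -1.03 (SE 0.0332, adjusted p = 4.23e-12) in normoxia, -0.72 (SE 0.0358, adjusted p = 6.92e-10) in hypoxia and -0.58 (SE 0.115, adjusted p = 0.000909) on TGF-β1. It rose by 0.36 (SE 0.0315, adjusted p = 6.22e-08) in hypoxia and fell to a log2 fold change of -0.79 (SE 0.114, adjusted p = 1.19e-05) with TGF-β1, -0.50 within subset 1 and -0.96 within subset 2.

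EIF4EBP1, a repressor of cap-dependent translation, stood at 30.8, 28.9, 30.5, 29.8 and 30.6 CPM in normoxic solvent controls and 20.6, 19.8 and 19.4 CPM with BAY. Hypoxia gave 45.5, 45.5 and 52.6 CPM, and hypoxia with BAY 34.2, 32.6 and 39.5 CPM. With TGF-β1 it stood at 71.8, 71.1, 65.0, 65.4 and 67.5 CPM and with TGF-β1 and BAY at 64.4, 63.4, 60.5, 63.4 and 62.7 CPM. TGF-β1 gave the highest levels, followed by hypoxia. EIF4EBP1 rose by 1.13 (SE 0.0286, adjusted p = 2.32e-16) with TGF-β1 and 0.65 (SE 0.0606, adjusted p = 1.35e-07) in hypoxia, and fell with BAY to a log2 fold change of -0.59 (SE 0.0634, adjusted p = 2.12e-06) in normoxia and -0.44 (SE 0.0689, adjusted p = 9.88e-05) in hypoxia. The fall on TGF-β1 was -0.10 (SE 0.0281, adjusted p = 0.0119), and -0.07 (adjusted p = 0.122) within subset 2.

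XPOT, which exports tRNA from the nucleus, stood at 139, 135, 138, 136 and 137 CPM in normoxic solvent controls and 87.6, 86.2 and 90.1 CPM with BAY. It stood at 104, 98.1 and 99.7 CPM in hypoxia and 63.6, 64.2 and 65.2 CPM in hypoxia with BAY. TGF-β1 libraries held 205, 212, 197, 199 and 202 CPM, and those with BAY as well 175, 175, 174, 159.8 and 165 CPM. No 2 of these 6 ranges overlapped. XPOT fell with BAY to a log2 fold change of -0.63 (SE 0.0313, adjusted p = 3.99e-10) in normoxia, -0.66 (SE 0.0347, adjusted p = 1.29e-09) in hypoxia and -0.24 (SE 0.025, adjusted p = 6.6e-07) on TGF-β1. It rose by 0.52 (SE 0.0251, adjusted p = 2.42e-12) with TGF-β1 and fell to a log2 fold change of -0.46 (SE 0.0311, adjusted p = 3.18e-09) in hypoxia.

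CHAC1, which degrades glutathione and is a target of ATF4 and DDIT3, was low throughout. It stood at 4.09, 3.49, 2.69, 2.08 and 3.79 CPM in normoxic solvent controls and 1.89, 1.94 and 1.71 CPM with BAY. Hypoxic libraries held 0.527, 0.734 and 0.523 CPM with solvent and 0.36, 0.459 and 0.359 CPM with BAY. The levels were 3.17, 3.18, 2.57, 2.22 and 2.33 CPM with TGF-β1 and 2.35, 3.17, 1.65, 1.67 and 1.63 CPM with TGF-β1 and BAY. Hypoxic libraries were all below 1 CPM, and controls of subset 2 were the lowest controls. CHAC1 fell to a log2 fold change of -2.45 (SE 0.212, adjusted p = 5.86e-08) in hypoxia, while its regulators ATF4 and DDIT3 rose there. It fell with BAY in normoxia to a log2 fold change of -0.79 (SE 0.191, adjusted p = 0.00325), -1.04 (adjusted p = 2.96e-05) against subset 1 and -0.37 (adjusted p = 0.143) against subset 2. TGF-β1 gave -0.31 and BAY on TGF-β1 -0.35 (adjusted p = 0.209), neither called over all libraries. CHAC1 fell with BAY on TGF-β1 in both fits with the replicate block (-0.37, adjusted p = 0.0439, and -0.38, adjusted p = 0.0132, with these 2 groups alone), within subset 2 (-0.50, adjusted p = 0.00411) and with the subset as a term (-0.38, adjusted p = 0.0049). KLHL24, a ubiquitin ligase adaptor, rose in hypoxia from 84.1 ± 4.1 CPM (SD, n = 5) to 127 ± 9.94 CPM (SD, n = 3), by 0.58 (SE 0.055, adjusted p = 1.85e-07). It rose with BAY in normoxia (0.28, SE 0.0554, adjusted p = 0.000668) and in hypoxia (0.24, SE 0.0622, adjusted p = 0.00637) and fell with TGF-β1 (-0.73, SE 0.0483, adjusted p = 2.05e-10).

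**Figure D4:**
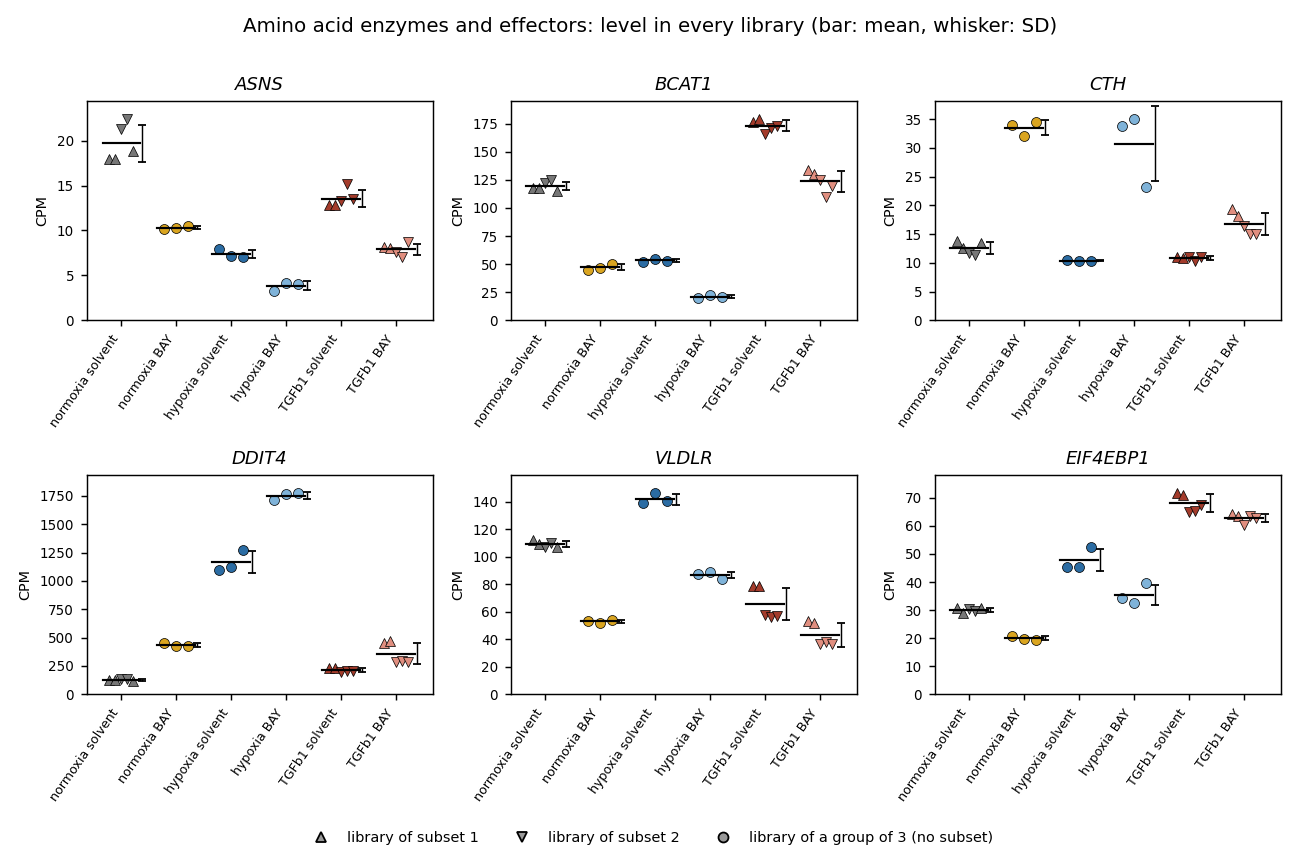
CPM of 3 amino acid enzymes (top) and 3 effectors (bottom) in every library, by group, with the mean as a bar and the SD as a whisker. BAY libraries lie below their solvent libraries for ASNS, BCAT1 and VLDLR and above them for CTH and DDIT4 in all 3 settings.

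Whether BAY acted differently in hypoxia than in normoxia was tested by the difference of the 2 effects. Higher and lower refer here to the log2 fold change with BAY, so a smaller fall counts as higher and a smaller rise as lower. Of the 32 genes 7 had a higher BAY effect in hypoxia, 3 a lower one and 22 were not called. Over all genes 16.8% were called, 8.83% higher and 7.92% lower. DDIT4 differed the most: BAY raised it by 1.78 in normoxia and 0.58 in hypoxia, a difference of -1.20 (SE 0.092, adjusted p = 6.8e-07) on the log2 scale. TRIB3 rose with BAY in hypoxia and stood at -0.06 in normoxia, with a difference of 0.51 (SE 0.061, adjusted p = 4.48e-05). CEBPG fell with BAY in hypoxia (-0.55) and was not called in normoxia (-0.12), with a difference of -0.44 (SE 0.0932, adjusted p = 0.00458). MTHFD2 fell with BAY in normoxia (-0.35) and was not called in hypoxia (-0.01), with a difference of 0.33 (SE 0.0494, adjusted p = 0.00031). PYCR1 (0.27), VLDLR (0.31), SHMT2 (0.20) and ALDH18A1 (0.26) were also higher. For PYCR1, VLDLR and SHMT2 this was a smaller fall in hypoxia, VLDLR going from -1.03 in normoxia to -0.72. ALDH18A1 fell in normoxia (-0.20) and was not called in hypoxia (0.06). The ALDH18A1 call was lost without normoxic BAY replicate 2 (0.28, adjusted p = 0.0512). PPP1R15A (0.94, SE 0.291, adjusted p = 0.0499) and CEBPB (-0.51, SE 0.154, adjusted p = 0.0407) stood at the edge of the threshold. The PPP1R15A call was lost without any 1 of normoxic solvent replicates 1, 2 and 5 or of the 9 libraries of the other 3 groups (adjusted p from 0.0615 to 0.114), and the CEBPB call without any 1 of 10 of the 14 libraries (adjusted p from 0.0524 to 0.153), all but normoxic solvent replicates 1 and 3, hypoxic solvent replicate 3 and hypoxic BAY replicate 3. Both were also lost with the replicate block (0.98, adjusted p = 0.0799, and -0.46, adjusted p = 0.123), and CEBPB against subset 1 (-0.34, adjusted p = 0.0589). ATF4 (0.11) and DDIT3 (0.18) were not called over all libraries, and against subset 1 both had a higher BAY effect in hypoxia (0.29, adjusted p = 0.0019, and 0.42, adjusted p = 0.0153). ASNS, BCAT1, CTH, MTHFD1L and XPOT had differences of -0.02, -0.01, 0.13, 0.01 and -0.02, with SE from 0.0462 for XPOT to 0.157 for CTH, and were not called.

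Whether BAY acted differently with TGF-β1 was tested in the same way. Of the 32 genes 14 had a higher BAY effect with TGF-β1, 4 a lower one and 14 were not called, where 20.7% of all genes were called, 13.7% higher and 7.08% lower. The genes called higher all had values below 0 with BAY in normoxia. For them higher means a smaller fall, no fall or a rise on TGF-β1: BCAT1 went from -1.33 to -0.47. The median difference was 0.18, against 0.03 over all genes. BCAT1 differed by 0.88 (SE 0.0639, adjusted p = 2.09e-08), MTHFD1L by 0.69 (SE 0.048, adjusted p = 1.34e-08) and PYCR1 by 0.59 (SE 0.0706, adjusted p = 7.69e-06). EIF4EBP1 (0.51), XPOT (0.41) and MTHFD2 (0.38) went the same way. The rises of DDIT4 and CTH were smaller too, with differences of -0.99 (SE 0.178, adjusted p = 0.000619) and -0.75 (SE 0.0985, adjusted p = 1.98e-05). KLHL24 differed by -0.27. TRIB3 fell with BAY on TGF-β1 and not in normoxia, with a difference of -0.51 (SE 0.161, adjusted p = 0.0314) that was lost without any 1 of the 3 normoxic BAY replicates, TGF-β1 replicates 1 and 2, or replicates 3 and 5 of TGF-β1 with BAY (adjusted p from 0.052 to 0.0727). Calls of ATF5 (0.17, SE 0.0578, adjusted p = 0.0444) and JDP2 (0.26, SE 0.0878, adjusted p = 0.0412) were lost in most fits without 1 library and with the replicate block (0.16, adjusted p = 0.0671, and 0.25, adjusted p = 0.0629), and with subset 1 alone ATF5 was 0.13 (adjusted p = 0.0887) and JDP2 0.03 (adjusted p = 0.841). PPP1R15B differed by 0.26 (adjusted p = 0.0117), and by 0.10 (adjusted p = 0.0866) with subset 2 alone. The normoxic BAY libraries carry no subset, so part of these differences could not be checked within subsets. ASNS, PSAT1, PSPH and SHMT2 were not called, at 0.18, -0.19, 0.13 and 0.04, and PSAT1 was -0.40 (adjusted p = 0.000142) with subset 2 alone. VLDLR was not called at 0.47 (adjusted p = 0.0709), but was with the replicate block (0.55, adjusted p = 0.00887) and with subset 1 (0.44, adjusted p = 3.17e-06) or subset 2 (0.44, adjusted p = 1.37e-06). PPP1R15A was not called at 0.64 (adjusted p = 0.266), but was with the block (0.75, adjusted p = 0.0473), with subset 1 (0.76, adjusted p = 2.42e-07) and with subset 2 (0.23, adjusted p = 0.0227). CEBPB, at -0.38 (adjusted p = 0.0834), was called with the block (-0.33, adjusted p = 0.0483) and with subset 2 (-0.55, adjusted p = 0.0159). ATF4, at 0.09 (adjusted p = 0.815), was called in opposite directions, with 0.18 (adjusted p = 0.00383) for subset 1 and -0.17 (adjusted p = 0.022) for subset 2. CHAC1, at 0.47 (adjusted p = 0.309), was called with subset 1 alone (0.81, adjusted p = 0.00394), and DDIT3, at -0.03 (adjusted p = 0.94), with subset 2 alone (-0.39, adjusted p = 0.00113).

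**Figure D5:**
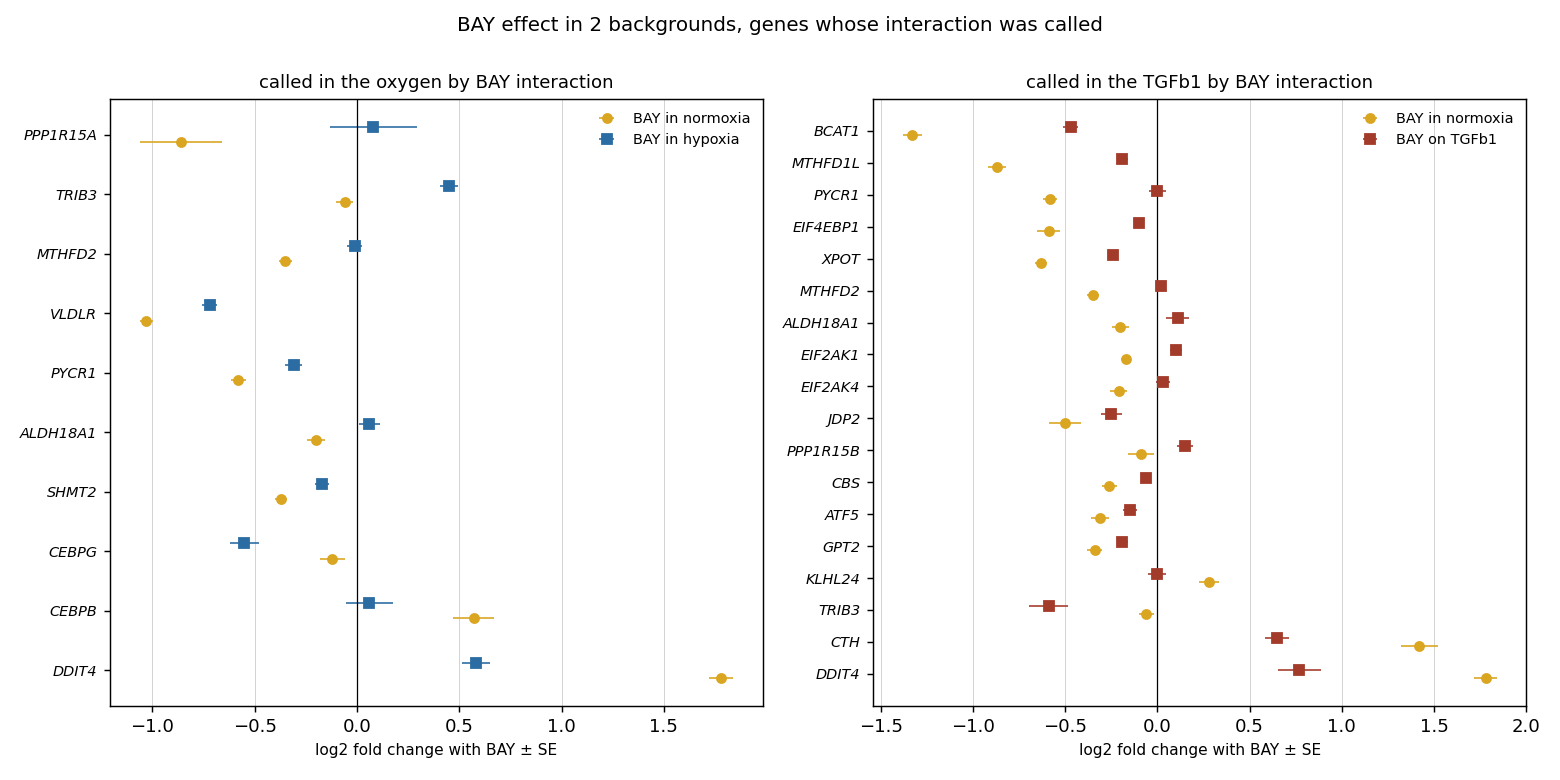
Log2 fold change with BAY (points, with SE as bars) in normoxia against hypoxia (left) and in normoxia against TGF-β1 (right), for the genes whose difference was called. On the right, BCAT1 moves from -1.33 in normoxia to -0.47 with TGF-β1, and DDIT4 from 1.78 to 0.77.

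Lists of related genes outside the 32 are described by their counts of called genes. Over all genes, 60.8% were called in hypoxia, 43.9% with BAY in normoxia, 37.9% with BAY in hypoxia, 62% with TGF-β1 and 29.5% with BAY on TGF-β1. Aminoacyl tRNA synthetases, which charge tRNA and include many targets of ATF4, had 19 tested genes. With BAY in normoxia 18 fell and 1 rose (median log2 fold change -0.32), with BAY in hypoxia 14 fell and 0 rose (-0.18), and with BAY on TGF-β1 14 fell and 1 rose (-0.16). With TGF-β1 15 rose and 2 fell (0.41), and in hypoxia 5 rose and 11 fell (-0.27). All genes had medians of 0.00, -0.02, 0.01, -0.04 and -0.02 in these comparisons. WARS1 fell to a log2 fold change of -0.55 with BAY in normoxia, VARS1 rose by 0.60 with TGF-β1, and MARS1 fell to -1.77 in hypoxia.

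Amino acid transporters of the response, 10 genes, had 5 that rose and 5 that fell with BAY in hypoxia. SLC7A5, the large neutral amino acid transporter, had means of 72.4, 65.7, 160.1, 580.4, 157 and 195 CPM in the order of groups given at the start, and rose with BAY in hypoxia by 1.85 (SE 0.0455, adjusted p = 5.03e-13). SLC7A11, the cystine transporter, fell in hypoxia (log2 fold change -2.21) and with BAY in normoxia, and rose with TGF-β1 (1.19) and with BAY on TGF-β1, at means of 8.31, 4.13, 1.82, 1.22, 19.6 and 54.6 CPM in that order. Of 14 tested other targets of ATF4 and DDIT3, 7 rose and 4 fell in hypoxia, where 29.2% of all genes were called higher and 31.6% lower, and 4 rose and 8 fell with BAY in normoxia, where 20.6% were called higher and 23.3% lower. ATF3, a stress factor, stood at 8.06 CPM in hypoxia and 45.3 CPM in hypoxia with BAY, and rose there by 2.48 (SE 0.281, adjusted p = 3.32e-05). With BAY in normoxia and on TGF-β1 its values were 0.05 and -0.01, not called. GADD45A fell with BAY to a log2 fold change of -1.85 in normoxia, -1.24 in hypoxia and -1.01 on TGF-β1.

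Of 12 subunits of eIF2 and eIF2B and further kinases, 8 fell and 1 rose in hypoxia, and 7 rose and 3 fell with TGF-β1. EIF2AK3, the PERK kinase of the endoplasmic reticulum, fell in hypoxia to a log2 fold change of -0.82 (SE 0.0476, adjusted p = 6.34e-10) and with TGF-β1 to -0.58 (SE 0.0328, adjusted p = 2.05e-11), and rose with BAY in hypoxia by 0.67 (SE 0.0521, adjusted p = 8.74e-08). EIF2AK2, the PKR kinase, fell in hypoxia to a log2 fold change of -0.70 and with TGF-β1 to -0.42. Among 15 tested further folate and one-carbon enzymes, 9 fell and 4 rose in hypoxia, and 8 rose and 3 fell with TGF-β1. GLDC, the glycine decarboxylase, fell in all 5 comparisons, from -1.68 with TGF-β1 to -0.88 with BAY on TGF-β1. SLC25A32, the mitochondrial folate carrier, rose with BAY in hypoxia by 1.21. Of 18 genes of the unfolded protein response outside the ATF4 branch, mostly chaperones, 14 fell and 3 rose in hypoxia (median -0.66) and 15 rose and 3 fell with TGF-β1 (median 0.81). SDF2L1 fell to a log2 fold change of -2.33 and rose by 1.39 in these comparisons. The 15 tested targets of the hypoxia inducible factors, of which DDIT4 is also among the 32 and VEGFA also in the list of other targets, had a median of 2.89 in hypoxia.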

How the data were processed

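Poly(A) RNA of 24 HK-2 libraries was sequenced. Estimated counts for each Ensembl gene were deposited by the authors in 1 table. The submitters' processing notes name Salmon, DESeq2 and GRCh38 (hg38), and the sources used here give no version, annotation or strand setting. Of the non-zero values 48.6% were not whole, and they were rounded before the tests. Symbols were found for 58919 of 65180 IDs, and the other 6261 held 4.36% of counts. Positions are those of GENCODE 29. The 32 genes, the lists of related genes and the tests were chosen with earlier results of these data known. Of the marker genes, 1 is not reported here.

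Counts were tested with edgeR 4.0.16 in R 4.3.3 (TMM scaling, filterByExpr, robust quasi-likelihood test), once over the 14 libraries of the hypoxia experiment and once over the 18 of the TGF-β1 experiment, with the 8 normoxic libraries without TGF-β1 in both, and p-values were adjusted over all genes of a fit. The SE is the log2 fold change divided by the root of the F statistic. Levels are CPM scaled by TMM over all 24 libraries, and are not compared between genes because they are not per length. ATF4 and the 6 called members with the largest change in each of the 7 comparisons were given in every library. Of list genes up to 2 with the largest change in a comparison were named, with SLC7A5, ATF3, EIF2AK2 and EIF2AK3. The steps were tested on simulated counts for the hypoxia comparison only, with the same spread for all genes and no subsets of libraries. This could not check the other comparisons or the part of the subsets.

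Same-numbered hypoxic libraries with solvent and BAY deviated together (correlations 0.332, 0.226 and 0.498), as did same-numbered TGF-β1 libraries with and without BAY (0.438 to 0.695). The replicate block takes the numbers to pair these groups, which the labels do not state. Same-numbered TGF-β1 libraries were also of the same subset, and libraries of the same subset correlated at 0.285 to 0.806. For the TGF-β1 groups the correlations therefore cannot tell pairing by number from the subset. Hypoxic libraries of different numbers were not compared. Normoxic libraries did not deviate together by number throughout. Normoxic and TGF-β1 solvent libraries correlated at 0.496 to 0.576 for numbers 1 to 4 and at -0.408 for number 5, where the subsets differ. In the fits of a whole experiment the block tied the normoxic libraries by number all the same. Alternatives were DESeq2 1.42.0, limma voom (limma 3.58.1), RLE size factors, no filter on low counts, all 24 libraries in 1 fit, the replicate block, each library left out in turn and, added after the data were seen, the subsets of libraries and the block in a fit of 2 groups.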

Additional observations from a re-analysis of the deposited data

Results flagged for a closer look

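Of 96 groups of 5 libraries, 1 for each gene and group, 4 held a library far from the others, where chance gives about 1 in 20. PHGDH had 1 library at 124 CPM with TGF-β1 and BAY, above the other 4. GPT2 had 1 normoxic solvent library at 66.4 CPM, above the other 4. SHMT1 had 1 normoxic solvent library at 23.5 CPM and 1 library with TGF-β1 and BAY at 10.6 CPM, each well below the other 4, and SHMT1 was called in no comparison over all libraries.

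The effect of BAY differed between hypoxia and normoxia in 10 genes, by the test of the difference itself. The log2 differences were -1.20 for DDIT4, -0.51 for CEBPB and -0.44 for CEBPG. They were 0.94 for PPP1R15A, 0.51 for TRIB3, 0.33 for MTHFD2, 0.31 for VLDLR, 0.27 for PYCR1, 0.26 for ALDH18A1 and 0.20 for SHMT2.

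The effect of BAY differed between TGF-β1 and normoxia in 18 genes, by the same kind of test. The log2 differences were -0.99 for DDIT4, -0.75 for CTH, -0.51 for TRIB3 and -0.27 for KLHL24. They were 0.88 for BCAT1, 0.69 for MTHFD1L, 0.59 for PYCR1, 0.51 for EIF4EBP1, 0.41 for XPOT, 0.38 for MTHFD2 and 0.33 for ALDH18A1. They were 0.29 for EIF2AK1, 0.26 each for EIF2AK4, PPP1R15B and JDP2, 0.21 for CBS, and 0.17 each for ATF5 and GPT2.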

How the results depend on the processing

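Every setting kept the number of called genes within 1.5 times its reported value in all 7 comparisons. With 1 library left out the counts ran from 25 to 29 in hypoxia, 24 to 25 with BAY in normoxia, 21 to 22 with BAY in hypoxia, 7 to 10 for the difference of BAY effects between hypoxia and normoxia, 21 to 24 with TGF-β1, 17 to 19 with BAY on TGF-β1 and 15 to 19 for the difference of BAY effects between TGF-β1 and normoxia. No called gene changed sign under any alternative run. Of the 141 called values, 1 lost its call with DESeq2, 1 with limma voom, 5 with RLE size factors, 6 in 1 fit of all libraries and 9 without a filter on low counts, and the calls were lost in 69 of 1406 fits of a called gene without 1 library. Depth was not varied. NUPR1 reached 1 CPM in no library and could not be tested in subset 2, and CHAC1 lay below 1 CPM in every hypoxic library.

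With the replicate block 28, 24, 22, 8, 22, 20 and 19 genes were called in the 7 comparisons in the order above, and 4 calls were lost, all in the differences of BAY effects: PPP1R15A (0.98, adjusted p = 0.0799) and CEBPB (-0.46, 0.123) for oxygen, and ATF5 and JDP2 for TGF-β1. The 6 calls gained were CHAC1 with BAY in hypoxia, DDIT3 and CHAC1 with BAY on TGF-β1, and VLDLR, PPP1R15A and CEBPB in the TGF-β1 difference. The difference of BAY effects on DDIT3 between TGF-β1 and normoxia became 0.00 under the block.

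Sign changes were all among values not called, 25 of them against subset 2, 12 with subset 1 and 72 in fits without 1 library. Among ATF4, DDIT3, PPP1R15A, TRIB3, CHAC1, ALDH18A1 and SHMT1, values turned against subset 2 for BAY in normoxia on ATF4 (0.22, now called) and DDIT3 (0.16), for hypoxia on SHMT1 (0.14), for the oxygen difference on ATF4 (-0.14), DDIT3 (-0.19) and CHAC1 (-0.22), and for the TGF-β1 difference on ATF4 (-0.17, now called) and CHAC1 (-0.13). With TGF-β1, ATF4 became 0.10, 0.06 and 0.04 and PPP1R15A 0.16, 0.04 and 0.06 within subset 1, within subset 2 and with the subset as a term, and TRIB3 -0.03 within subset 2. Within subset 1 the TGF-β1 difference was called higher on ATF4 (0.18) and CHAC1 (0.81), and the oxygen difference on ATF4 (0.29) and DDIT3 (0.42), while the TGF-β1 difference on DDIT3 was 0.09 and BAY on TGF-β1 gave ATF4 0.00. Without 1 library, ATF4 ran from -0.10 to 0.01 with BAY in normoxia, -0.11 to 0.02 with TGF-β1 and -0.04 to 0.10 with BAY on TGF-β1. DDIT3 ran from -0.10 to 0.08 with BAY in hypoxia and -0.11 to 0.06 for the TGF-β1 difference. PPP1R15A ran from -0.23 to 0.01 with TGF-β1, and SHMT1 from 0.00 to 0.32 with BAY in normoxia and -0.21 to 0.04 with BAY in hypoxia. These fits held fewer samples, and the cause of these changes was not tested.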
